A study of Mus musculus with 4 samples.

Results

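Host fibroblasts here are 173 cells of the 45220 in 4 single-cell libraries of transplanted mouse tumours, selected on their raw UMI counts (unique molecular identifiers, 1 per captured transcript). A cell was chosen by having at least 3 UMIs in total over Pdgfra, Dpt, Lum, Clec3b, Pi16 and Col14a1. It also had to stay below 3 UMIs of Krt8, Krt18, Tm4sf1 and Cdkn2a and below 5 UMIs of Tyrobp and Fcer1g per 10000 of its own UMIs, to have 0 UMIs of Epcam, Cd3e and Cdh5, and to have at least 300 genes. The tumours were grown from py8119, a mesenchymal mouse mammary carcinoma line, so the cells set beside the fibroblasts are tumour cells of a mesenchymal kind, taken as those with at least 5 UMIs of Krt8, Krt18, Tm4sf1 and Cdkn2a per 10000. There were 28050 such cells.

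The study addressed what Sema4d, a membrane semaphorin, does when it is made by the tumour cells. Its 4 libraries were 2 from control tumours and 2 from tumours of the same line with a Sema4d shRNA. The labels give the line, the group and the tissue and name neither the host strain, the age of the mice nor whether a library pools animals, and nothing says that the 2 libraries of a group came from separate animals, so every p-value below measures the spread between these libraries, which may be technical. The labels give the shRNA as the genotype of the tumour, which is of 1 cell line, and call the cells tumour cells, while 3308 to 5016 cells of each library did not meet the definition of tumour cells used here. The libraries held 10575 to 13173 cells and 83513906 to 119758159 UMIs each. Sema4d itself, at chr13:51685529-51793747 (GRCm38), was counted in the tumour cells at 8.47 and 9.10 CPM in the control and 5.05 and 7.32 CPM in the shRNA libraries, so each shRNA library lay below each control.

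Fibroblasts are the connective tissue cells that make and remodel the extracellular matrix: fibrillar collagens, the proteoglycans that coat them, elastic fibres and the enzymes that cross-link or cut them. They also secrete complement proteins, chemokines and growth factors. Mouse fibroblasts of many organs include a type in the sheaths of vessels and fascia, marked by Pi16 and Dpp4, and a type in the tissue itself, marked by Col15a1. In tumours some take on contractile genes (Acta2, Tagln) or inflammatory genes (Il6, Saa3, Cxcl12).

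The fibroblasts were 42 and 12 cells of the 2 control libraries and 30 and 89 cells of the 2 Sema4d-shRNA libraries, with 176160, 52838, 124066 and 409774 UMIs in all. Control 2, with 12 cells, is the least certain of these sums. The median fibroblast had 3416.5, 3588.5, 2942 and 3320 UMIs, below the tumour cells of the same libraries (9817.5, 8563.5, 10684 and 9360) and close to the T cells (2675, 2506, 2981 and 2673). Expression levels are given below as CPM, the UMIs of a gene summed over the fibroblasts of a library and scaled to a total of 1000000, in the order control 1, control 2, shRNA 1 and shRNA 2. They are not divided by gene length, so they are compared between cells and libraries and not between genes. The files number their cells and give no barcode sequence, so barcodes shared between libraries could not be counted. No doublet caller was run. The rule itself drops cells over the tumour or myeloid limit and cells with any UMI of Epcam, Cd3e or Cdh5. Cells with some tumour or myeloid UMIs below the limits were kept, and Tyrobp had a UMI in 21 of the fibroblasts and Fcer1g in 15.

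Of 633 cells with at least 3 UMIs of the marker genes, 274 (43.3%) met the definition of tumour cells and 169 were over the myeloid limit, some of them being over the tumour limit as well. Of the 169, 72 and 57 were in the controls and 15 and 25 in the shRNA libraries. After the tumour limit 320 cells were left, after the myeloid limit 175 and after the genes that had to be at 0 the final 173. Just inside the marker threshold were 10 cells with 3 marker UMIs and 10 with 4, and just outside it 20 with 2. Col1a2, a collagen I chain that the rule did not use, was at 538 CPM over the cells with 2 marker UMIs, at 1499 CPM over those with 3 and at 10070.2 CPM over the 163 with at least 4. Most of the set lay far from the threshold, since 144 cells had at least 7 marker UMIs. Of the 6 marker genes, 35 cells had all 6, 49 had 5, 39 had 4, 37 had 3, 8 had 2 and 5 had 1.

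The marker genes were all well above their level in tumour cells, which is what chose the cells and is given as a description. Pi16, a secreted protein of vessel-sheath fibroblasts (chr17:29317680-29330593), was at 1754 and 908 CPM in the control and 1548 and 1218 CPM in the shRNA libraries, against 0.676 to 1.78 CPM in tumour cells. Dpt, which encodes dermatopontin, a small matrix protein that binds decorin (chr1:164796644-164824266), was at 1692, 2158, 1306 and 2209 CPM. Clec3b (tetranectin) was at 1118, 984, 1120.4 and 954 CPM and Col14a1, a fibril-associated collagen, at 607, 757, 572 and 842 CPM. Each of these was counted in all 4 libraries, and Pi16 was lowest in control 2. Lum (lumican, a collagen-binding proteoglycan) varied more, at 426, 719, 177 and 405 CPM, and was lowest in shRNA 1. Pdgfra, the PDGF receptor of mesenchymal precursors (chr5:75152292-75198215), was at 125, 132, 121 and 127 CPM, with 9.08 to 12.2 CPM in tumour cells. A UMI of Dpt was seen in 92.5% of the fibroblasts, of Clec3b in 83.8%, of Pi16 in 75.7%, of Col14a1 in 74.0%, of Lum in 67.1% and of Pdgfra in 36.4%.

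The label was checked against genes that the rule did not read. Of a list of fibroblast identity genes, 17 of 21 that reached 100 CPM in either class were at least 4-fold higher in fibroblasts than in tumour cells, in the same direction in all 4 libraries, and none was lower. Across all genes outside the rule at that level, 219 of 1638 were higher by this measure (13.4%) and 59 were lower (3.6%). Since the same cells and counts chose the fibroblasts, these shares are a background only and carry no test. Lists of other host cells were at 0 in part only. Of the 14 endothelial genes 7 were at 0, of the 14 pericyte and smooth muscle genes 9 and of the 15 measured T and NK genes 7. The endothelial 7 include Cdh5 and the T and NK 7 include Cd3e, both held at 0 by the rule. In the fibroblasts 0 UMIs were seen of Rgs5, Myh11, Notch3 and Cspg4 (pericytes and smooth muscle), of Cldn5, Emcn and Tie1 (endothelium), of Cd4, Cd8a and Lck (T cells), of Cd79b (B cells), of Sox10 (nerve sheath), and of Krt5, Krt14 and Cdh1 (epithelium). Other members of the same lists were counted. Ramp2, a receptor partner of endothelium, had a UMI in 63 of the 173 fibroblasts (36.4%) at 85.1, 94.6, 129 and 149 CPM, against 37.6 to 43.5 CPM in tumour cells, and Flt1 had one in 7 cells and Kdr in 5. Scn7a, a sodium channel gene of the nerve list, had a UMI in 43 cells (24.9%) at 119, 94.6, 32.2 and 85.4 CPM, against 0.0624 to 0.140 CPM in tumour cells, and Cryab had one in 21 cells. Of the pericyte list Ndufa4l2 had a UMI in 13 cells and Abcc9 in 12. The endothelial list summed to 94.6 to 195 CPM against 64.0 to 74.8 CPM in tumour cells, the Schwann and nerve list to 56.4 to 227 CPM against 46.0 to 67.0 CPM in tumour cells and the pericyte list to 18.9 to 119 CPM against 11.1 to 15.05 CPM in tumour cells. A count of 0 allows up to 17.0, 56.8, 24.2 and 7.32 CPM in the 4 sums (3 counts per library, counting error only).

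**Figure D1:**
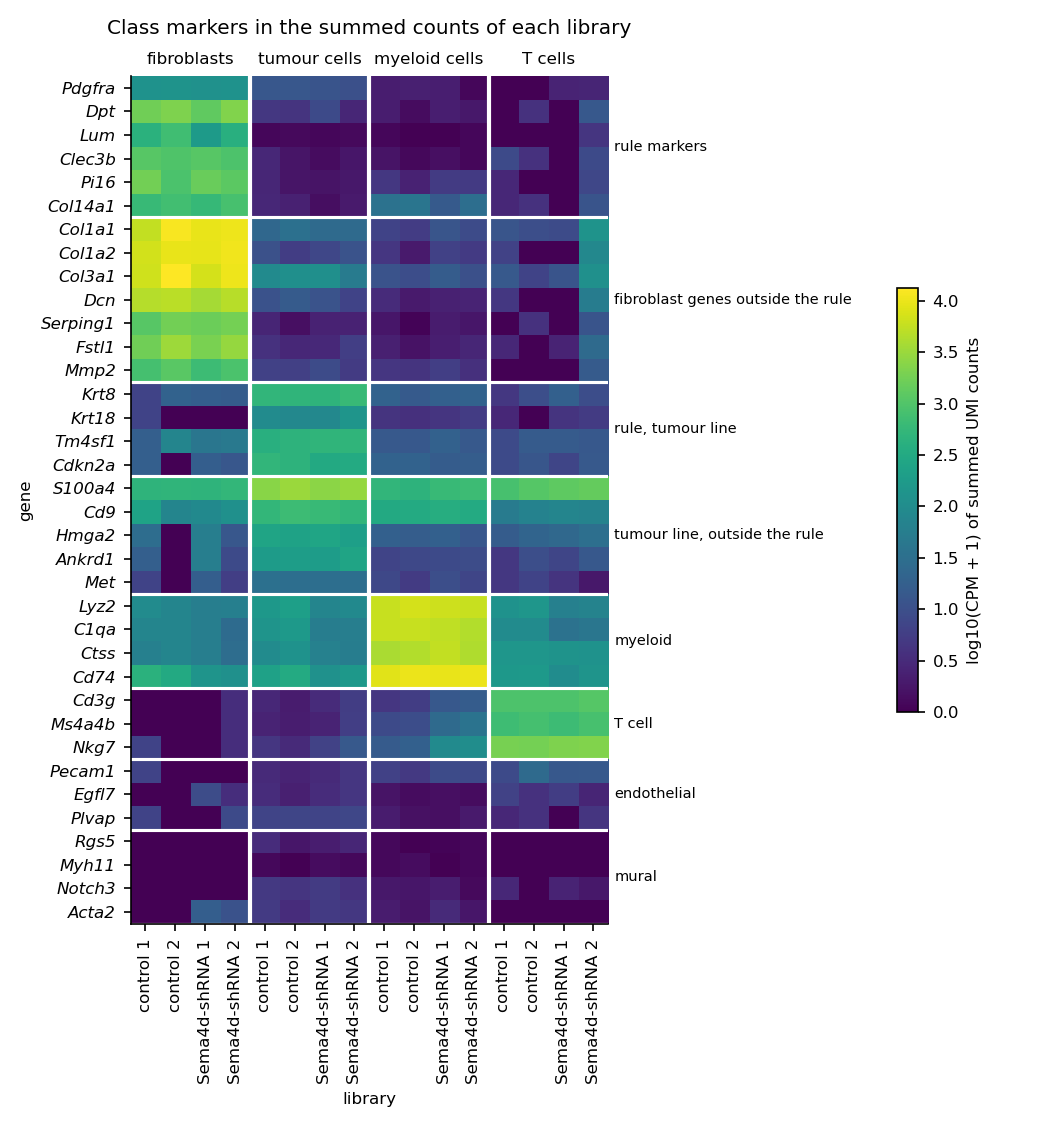
Levels of class markers, as log10(CPM + 1) of summed UMI counts by colour, in fibroblasts, tumour cells, myeloid cells and T cells of each of the 4 libraries. Collagen genes reach 7096 CPM or more for Col1a2 in every fibroblast column, and the pericyte genes Rgs5, Myh11 and Notch3 are at 0 there.

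Genes from the lists of macrophages and monocytes and of the tumour line were also counted. The 22 genes of the macrophage and monocyte list, 1 of which was at 0, summed to 1633 to 2191 CPM against 2605 to 4449 CPM in tumour cells. That list holds Tyrobp and Fcer1g, which the rule limited in fibroblasts and not in tumour cells. It also holds Spp1, which was higher in tumour cells than in fibroblasts (levels below). The sums are therefore no measure of myeloid RNA in the 2 classes. Of the 6 at 100 CPM or more in either class, 1 was at least 4-fold higher in fibroblasts, Plac8, with a UMI in 109 cells (63.0%) at 465, 284, 838 and 581 CPM, against 9.05 to 14.9 CPM in tumour cells, 169 to 484 CPM in myeloid cells and 351 to 564 CPM in T cells. Apoe, a lipid carrier, had a UMI in 85 cells (49.1%) at 278, 416, 113 and 583 CPM, against 108 to 379.9 CPM in tumour cells and 11617 to 14393 CPM in myeloid cells. Of the genes that mark macrophages most closely, Lyz2 was at 96.5, 75.7, 56.4 and 58.6 CPM and C1qa at 73.8, 75.7, 56.4 and 26.8 CPM, against 4517 to 6097 CPM of C1qa in myeloid cells. The T cells, which should lack both, had 61.0 to 148 CPM of Lyz2 and 34.4 to 95.8 CPM of C1qa, an overlapping range. They were held to the same limit of Tyrobp and Fcer1g as the fibroblasts, so both ranges depend on that limit. Of the tumour-line list, 8 of 11 genes at 100 CPM or more were at least 4-fold lower than in tumour cells. The list was not cleared of genes the rule read (it holds Epcam), so the selection may fix part of this count. Over all genes at that level, 63 were lower with the rule genes counted and 59 without them. Outside the rule, S100a4 was at 483, 492, 476 and 539 CPM against 2479 to 3173 CPM in tumour cells. Hmga2, a chromatin protein of that line, was at 28.4, 0, 56.4 and 12.2 CPM against 215 to 271 CPM. Whether the remaining UMIs of these genes come from free RNA or from the cells themselves was not tested. In the reverse direction, the T cells of shRNA 2 carried fibroblast genes, since 1 of them had 21 marker UMIs, and the marker level there was 42.6 CPM against 1.56 to 11.3 CPM in the other libraries.

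Matrix genes led the fibroblast profile. Of the fibrillar collagen genes, 6 of 6 at 100 CPM or more were at least 4-fold higher than in tumour cells, and their summed level was 20322 to 36848 CPM against 156 to 233 CPM in tumour cells. Col1a2, the alpha 2 chain of collagen I (chr6:4504814-4541544, protein-coding), was at 7096 and 9633 CPM in the control and 9318 and 10796 CPM in the shRNA libraries, against 4.55 to 10.5 CPM in tumour cells, and headed the ranking with a log2 ratio of 9.49 (5 CPM added to both means). Col1a1, the alpha 1 chain (chr11:94936224-94953042), was at 5580.1, 12112, 9777 and 10616 CPM, against 22.6 to 32.8 CPM in tumour cells. Col3a1, the homotrimeric collagen of loose tissue (chr1:45311538-45349706), was at 6755, 13380.5, 7149 and 10591 CPM and was the collagen with the highest tumour cell level of these, at 51.5 to 113 CPM. The fibroblasts of control 1 were lowest for all of them, and no fibroblast library overlapped any tumour cell library. After thinning every cell to 1000 UMIs, 85.8% to 99.8% of fibroblasts per library had a Col1a1 UMI, against 1.05% to 1.56% of T cells, whose median depth was similar. In unthinned counts, 169 of the 173 fibroblasts had one. Serpinh1, the collagen chaperone, was at 1192, 2006, 1693 and 1462 CPM.

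The bases before the start of Serpinh1 and Col3a1 are shown because a collagen chain and the chaperone that folds it were high together in every fibroblast sum. They are 250 bases upstream of the RefSeq start on GRCm38.p6, 5′ to 3′ on the gene's own strand, for Serpinh1 at chr7:99353240-99353489, minus strand, and for Col3a1 at chr1:45311288-45311537, plus strand. Capitals mark a match to the CCAAT box (letters CCAAT), the TATA box (letters TATAAA), the C/EBP motif (letters TTGCNNAA), the STAT motif (letters TTCNNNGAA) or the NF-kB consensus, each searched on both strands.
Serpinh1: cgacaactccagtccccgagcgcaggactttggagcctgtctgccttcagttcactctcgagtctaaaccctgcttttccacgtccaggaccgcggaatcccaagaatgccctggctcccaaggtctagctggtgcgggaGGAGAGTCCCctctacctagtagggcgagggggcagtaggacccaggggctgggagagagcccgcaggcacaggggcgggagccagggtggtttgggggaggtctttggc
Col3a1: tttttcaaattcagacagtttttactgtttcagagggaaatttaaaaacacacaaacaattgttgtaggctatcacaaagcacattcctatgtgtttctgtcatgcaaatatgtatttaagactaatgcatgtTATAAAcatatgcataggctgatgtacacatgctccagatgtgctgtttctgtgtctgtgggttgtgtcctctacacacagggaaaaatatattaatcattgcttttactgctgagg
In Serpinh1 the single match was to the NF-kB consensus, on the opposite strand, at bases 110 to 101 before the start. In Col3a1 the single match was TATAAA at bases 117 to 112. Of all 32851 mouse promoters of this length, 33.8% held CCAAT, 12.4% held TATAAA and 3.90% held the NF-kB consensus, and a match describes the letters only. Of the 30 genes that led the ranking against tumour cells, 16 had an entry in the promoter table, and 6 of these held CCAAT and 1 held TATAAA. These are counted by gene. By the same count 10133 of all 27025 genes held CCAAT and 3872 held TATAAA.

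Among the proteoglycans that bind collagen, 5 of 6 genes were at least 4-fold higher. Dcn (decorin) was at 4638, 5015, 3724 and 4895 CPM, against 5.75 to 14.4 CPM in tumour cells, and varied little between libraries. Bgn (biglycan) was at 976, 2422, 1934 and 2228 CPM and was lowest in control 1. Vcan (versican) was at 312, 587, 145 and 398 CPM. Ogn (osteoglycin) was at 409, 94.6, 274 and 493 CPM and Prelp at 261, 341, 395 and 222 CPM. Ogn was lowest in control 2, at 5 UMIs.

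Elastic fibre genes were also high, with 15 of 17 at least 4-fold higher than in tumour cells and a summed level of 6118 to 10466 CPM against 481 to 582 CPM in tumour cells. Fbn1, the fibrillin that builds microfibrils, was at 1283, 2744, 879 and 1930.3 CPM, against 1.38 to 2.62 CPM in tumour cells. Mfap5, a microfibril partner, was at 727, 1987, 927 and 1406 CPM and Loxl1, which cross-links elastin, at 925, 795, 693 and 1010.3 CPM. Fbln2 was at 573, 1401, 621 and 1079 CPM and Efemp2 at 488, 700.3, 806 and 608 CPM. Both of these were also counted in tumour cells, at 236 to 269 CPM and 99.6 to 129 CPM. Eln (tropoelastin) stood apart, at 244, 208, 129 and 1330.0 CPM. Its high level in shRNA 2 was uneven between cells: 1 fibroblast held 35.0% of all Eln UMIs.

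Of the basement membrane genes, 4 of 6 were at least 4-fold higher. Sparc, a collagen-binding matricellular protein, was at 6977, 15784, 10583 and 10938 CPM, but tumour cells also had 1165 to 1391 CPM. Nid1 (nidogen 1) was at 431, 625, 403 and 757 CPM against 0.416 to 1.72 CPM in tumour cells. Of the collagens that do not form fibrils, 5 of 8 were at least 4-fold higher. Col6a2 was at 607, 984, 709 and 786 CPM and Col6a1 at 341, 606, 467 and 722 CPM, each with more than 100 CPM in tumour cells (107 to 207 CPM and 199.7 to 309 CPM). Col6a3, the third chain of the same collagen VI, was at 272, 529.9, 185 and 322 CPM against 1.08 to 2.81 CPM, a log2 ratio of 5.62, where Col6a2 had 2.19 and Col6a1 1.06. Col4a1 (collagen IV) was at 380.3, 662, 387 and 508 CPM and Col15a1 at 51.1, 189, 153 and 161 CPM.

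Of the genes that cut or protect matrix, 12 of 21 were at least 4-fold higher in fibroblasts. Mmp2 (gelatinase A) was at 817, 1154, 685 and 891 CPM, against 4.21 to 7.61 CPM in tumour cells. Htra3, a secreted serine protease, was at 602, 871, 484 and 893 CPM and Serpinf1, the anti-angiogenic serpin PEDF, at 914, 1779, 1765 and 1349.5 CPM. The inhibitors were less distinct. Timp1 was at 693, 2441, 1983 and 925 CPM and Timp2 at 1260.2, 719, 887 and 983 CPM, against 781 to 1446 CPM and 559 to 712 CPM in tumour cells. Ctsb (cathepsin B) was at 573, 889.5, 588 and 654 CPM, below the myeloid cells at 1639 to 2022 CPM.

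Further genes among the 30 with the highest ratio, whose log2 ratios ran from 6.27 (Gpx3) to 9.49 (Col1a2), have various roles. Cpxm1, a carboxypeptidase-like protein, was at 2242, 2536, 1402 and 2816 CPM against 0.427 to 2.30 CPM in tumour cells. Cygb (cytoglobin), an oxygen-binding protein of fibroblasts, was at 403, 700.3, 476 and 442 CPM and Ccdc80, a matrix-associated protein, at 414, 814, 306 and 505 CPM. Tnxb (tenascin X), which binds collagen fibrils, was at 693, 738, 499.7 and 669 CPM. Gfpt2, an enzyme of hexosamine synthesis, was at 204, 852, 330.5 and 327 CPM and Tppp3 at 233, 738, 532 and 512 CPM. All 30 of these genes were above the tumour cell level in every library, which the ranking required of them.

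**Figure D2:**
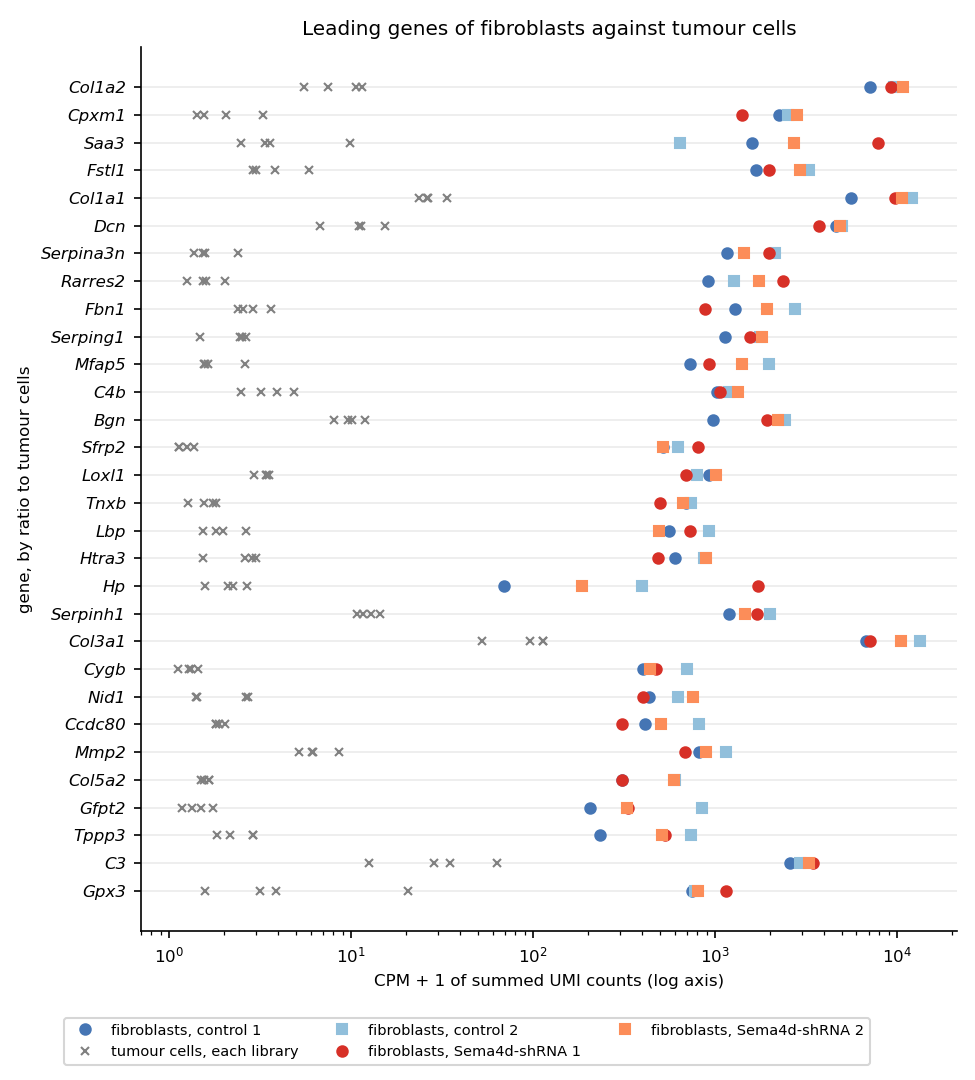
CPM + 1 on a log axis of the 30 genes outside the rule with the highest ratio of fibroblasts to tumour cells, with 1 point per library for fibroblasts (colours) and a grey cross per library for tumour cells. Fibroblast points of the same gene lie close together for most genes, and Saa3 and Hp spread widest, from 643 to 7859 CPM for Saa3 and from 68.1 to 1717 CPM for Hp.

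A second leading group was complement and acute-phase genes, which encode secreted proteins of innate defence better known from liver. Of the complement list, 6 of 9 were at least 4-fold higher than in tumour cells. C3, the central complement component (chr17:57203970-57228136), was at 2577 and 2952 CPM in the control and 3449.8 and 3282 CPM in the shRNA libraries, against 11.6 to 62.4 CPM in tumour cells and 63.8 to 206 CPM in myeloid cells. After thinning to 1000 UMIs, 65.0% to 87.5% of fibroblasts had a C3 UMI per library, against 0.450% to 0.607% of T cells, and 157 of 173 had one unthinned. C4b was at 1027, 1192, 1072 and 1347 CPM and Serping1, the C1 inhibitor, at 1129.7, 1760.1, 1556 and 1813 CPM. Cfb (factor B) was at 369, 529.9, 532 and 615 CPM and C1ra, a C1 protease, at 454, 227, 419 and 412 CPM. C4b, C1ra and the serpin Serpina3n each have close gene copies, so their reads may be split between copies and their levels are uncertain. Serpina3n was at 1164, 2139, 1975 and 1449.6 CPM against 0.374 to 1.40 CPM in tumour cells.

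Saa3, a serum amyloid A made outside the liver (chr7:46711998-46715700), was at 1589 and 643 CPM in the control and 7859 and 2731 CPM in the shRNA libraries, against 1.49 to 8.88 CPM in tumour cells and 7.97 to 37.8 CPM in myeloid cells. It was uneven between cells as well as libraries. A Saa3 UMI was present in 13 of 42, 2 of 12, 17 of 30 and 38 of 89 fibroblasts, and after thinning to 1000 UMIs in 16.7% to 46.2% per library, against 0.0554% to 0.486% of T cells. In control 2, 1 of the 2 positive cells held 64.7% of the UMIs. Hp (haptoglobin) showed a similar spread, at 68.1, 397, 1717 and 185 CPM, with a UMI in 37 cells. Lbp, the lipopolysaccharide-binding protein, was steadier, at 562, 927, 725 and 493 CPM, against 0.540 to 1.64 CPM in tumour cells. Rarres2, the precursor of the chemoattractant chemerin, was at 919.6, 1268, 2369.7 and 1752 CPM. Gpx3, a secreted glutathione peroxidase, was at 744, 776, 1153 and 805 CPM.

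The upstream bases of Saa3 and C3 are shown because both genes are classical acute-phase targets and were high in every fibroblast sum. The stretch for Saa3 is chr7:46715677-46715926, minus strand, and that for C3 is chr17:57228137-57228386, minus strand (RefSeq, GRCm38.p6, 250 bases before the start, 5′ to 3′ on the gene's strand, capitals as above).
Saa3: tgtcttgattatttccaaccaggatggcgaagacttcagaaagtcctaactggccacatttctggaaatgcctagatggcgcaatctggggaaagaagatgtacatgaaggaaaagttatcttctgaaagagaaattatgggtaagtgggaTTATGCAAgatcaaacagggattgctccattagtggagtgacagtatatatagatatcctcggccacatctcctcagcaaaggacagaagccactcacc
C3: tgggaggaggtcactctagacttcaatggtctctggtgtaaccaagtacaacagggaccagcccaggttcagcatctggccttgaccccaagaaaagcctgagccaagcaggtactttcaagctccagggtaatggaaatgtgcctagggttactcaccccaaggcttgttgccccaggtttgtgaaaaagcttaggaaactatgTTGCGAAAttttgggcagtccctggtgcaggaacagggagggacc
Each held a single match, to the C/EBP motif TTGCNNAA. In Saa3 it lay on the opposite strand at bases 99 to 92 before the start and read TTATGCAA on the strand printed. In C3 it lay at bases 45 to 38 and read TTGCGAAA. Of all mouse promoters of this length 9.56% held this motif, and 5 of the 16 leading genes with an entry did (C3, Gfpt2, Nid1, Saa3 and Sfrp2). The STAT motif was in 0 of the 16 and in 7.02% of all promoters, and the NF-kB consensus in 1 of the 16 (Serpinh1) and in 3.90% of all. The 16 are counted by gene. Of all 27025 genes counted so, 2930 held the C/EBP motif, 2197 the STAT motif and 1204 the NF-kB consensus. These matches describe the letters in the window and no binding was measured.

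Of the inflammatory fibroblast list, which holds chemokines, cytokines and other genes such as Saa3, Pdpn and Il33, 7 of 15 were at least 4-fold higher than in tumour cells. Cxcl14 was at 119, 643, 419 and 642 CPM and Ccl11 (eotaxin) at 153, 75.7, 274 and 246 CPM, against 1.34 to 3.74 CPM and 0.0846 to 0.170 CPM in tumour cells. Pdpn (podoplanin) was at 255, 700.3, 242 and 334 CPM. Ccl8 was at 119, 208, 613 and 185 CPM, but myeloid cells had 338 to 2087 CPM. Il6 and Cxcl1, often used to define inflammatory tumour fibroblasts, were scarce. Over all 173 cells 2 UMIs of Il6 and 13 of Cxcl1 were counted. Cxcl2, Lif and Il11 had a UMI in 3 cells each and Cxcl5 in 2. Other cytokines were seen in more cells, with a UMI of Csf1 in 83, of Il33 in 59, of Ccl7 in 37 and of Ccl2 in 26. Cxcl12, which attracts leukocytes through Cxcr4, was at 369 and 265 CPM in the control and 903 and 783 CPM in the shRNA libraries, against 70.3 to 75.8 CPM in tumour cells.

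The contractile genes Acta2, Tagln and Cnn1 were nearly absent. Acta2 (smooth muscle actin) had 6 UMIs in 6 fibroblasts, all in the shRNA libraries, and Tagln (transgelin) 26 UMIs in 8 cells, all in shRNA 2. Cnn1 was at 0. Others of this kind were seen in more cells, with a UMI of Tpm1 in 76, of Cnn2 in 41 and of Tpm2 in 21, while Myl9 had one in 8. Of the myofibroblast list 7 of 10 genes at 100 CPM or more were still at least 4-fold higher, and 1 was lower (Tpm1, at 136, 56.8, 185 and 146 CPM against 555 to 650.4 CPM). Postn (periostin) was at 664, 1703, 1161 and 952 CPM against 11.3 to 31.3 CPM in tumour cells, and Thbs2 at 125, 208, 161 and 383 CPM. Cthrc1 was at 73.8, 56.8, 314 and 151 CPM. Fap, the fibroblast activation protein, was low but counted in every library, at 51.1, 56.8, 56.4 and 43.9 CPM against 0.0312 to 0.142 CPM in tumour cells. Of the preadipocyte list, 0 of 2 genes at 100 CPM were at least 4-fold higher, and Adipoq and Plin1 were at 0.

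Secreted signals formed a further group. Of the genes of WNT and BMP control at 100 CPM or more, 7 of 7 were at least 4-fold higher in fibroblasts. Fstl1, a follistatin-like protein, was at 1675, 3274, 1975 and 2931 CPM, against 1.91 to 4.90 CPM in tumour cells. Sfrp2, a soluble WNT inhibitor, was at 517, 625, 806 and 519.8 CPM, and its relatives Sfrp4 and Sfrp1 were at 176, 719, 258 and 312 CPM and at 153, 681, 209.6 and 295 CPM. Both relatives were highest in control 2. IGF carriers were high, with Igfbp6 at 1113, 1438, 2241 and 1801 CPM and Igfbp4 at 1419, 2252, 1346 and 1657 CPM, against 21.5 to 37.0 CPM and 341 to 644 CPM in tumour cells. Igfbp7 was at 568, 1457, 661 and 920.0 CPM and Igfbp5 at 505, 643, 476 and 935 CPM. Igf1 itself was at 114, 208, 153 and 273 CPM, with a UMI in 41 cells, 1 of which held 29.0% of the UMIs. Figf (vascular endothelial growth factor D) was at 187, 265, 202 and 237 CPM and Angptl4 at 255, 208, 274 and 319.7 CPM. Gas6, the ligand of the receptor Axl, was at 62.4, 94.6, 145 and 134 CPM against 1.30 to 1.68 CPM in tumour cells.

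Receptors differed less between the classes, with 2 of 8 at least 4-fold higher. Axl was at 295, 416, 322 and 276 CPM and Fgfr1 at 318, 284, 234 and 209.9 CPM, against 190.3 to 197 CPM and 211 to 234 CPM in tumour cells. Egfr was at 119, 246, 129 and 185 CPM against 14.9 to 17.0 CPM. Tgfbr2, the type II TGF-beta receptor, was at 307, 435, 306 and 527 CPM against 18.0 to 22.5 CPM. Il1r1, the receptor for interleukin 1, was at 68.1, 246, 88.7 and 151 CPM and was highest in control 2. Ifnar2 was at 159, 227, 80.6 and 102 CPM and Tnfrsf1a at 131, 94.6, 121 and 164 CPM, both counted in all 4 libraries.

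Sema4d acts on plexin-B receptors, and of these the fibroblasts carried Plxnb2. It was at 68.1, 132, 48.4 and 61.0 CPM, close to tumour cells at 55.2 to 74.1 CPM and above the T cells at 2.90 to 9.38 CPM. Plxnb1 was seen as 1 UMI in 1 fibroblast of shRNA 2, and Plxnb3 was at 0. Sema4d was seen as 1 UMI in control 1 and 1 in shRNA 1 among all fibroblasts, against 181 to 268 CPM in T cells and 65.1 to 80.4 CPM in myeloid cells. Of the semaphorin and plexin list, 1 of 3 genes at 100 CPM or more was at least 4-fold higher, Sema3c, a secreted class 3 semaphorin of the Pi16 type, at 233, 227, 226 and 222 CPM against 16.4 to 22.6 CPM in tumour cells. Its level was nearly the same in every library. Nrp1, a co-receptor of class 3 semaphorins, was at 102, 151, 137 and 166 CPM and Plxna1 at 39.7, 75.7, 40.3 and 43.9 CPM. Rhoa and Arhgef12, which act downstream of plexin-B, were at 295, 473, 234 and 329 CPM and at 102, 56.8, 80.6 and 80.5 CPM.

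Genes lower in fibroblasts than in tumour cells included genes of proliferation, of glycolysis and of the tumour line. Of the cell cycle list, 5 of 8 at 100 CPM or more were at least 4-fold lower. Hmgb2, a chromatin protein of dividing cells, was at 45.4, 0, 48.4 and 92.7 CPM against 472 to 528 CPM in tumour cells, and Ube2c, a mitotic ubiquitin enzyme, at 5.68, 0, 24.2 and 48.8 CPM against 155 to 193 CPM. Mki67 had 10 UMIs in 6 fibroblasts and Top2a 24 UMIs in 10. Of the hypoxia and glycolysis list, 2 of 12 were at least 4-fold lower. Gapdh was at 1425, 1249, 1427 and 896 CPM against 4533 to 5565 CPM and Bnip3 at 119, 18.9, 24.2 and 19.5 CPM against 179.8 to 215 CPM. Spp1 (osteopontin) was at 386, 75.7, 306 and 100.1 CPM, against 1613 to 2748 CPM in tumour cells and 1213 to 1868 CPM in myeloid cells. Cst6, a secreted cysteine protease inhibitor, was lowest of those named, with a log2 ratio of -3.70, at 5.68, 0, 8.06 and 2.44 CPM against 78.4 to 134 CPM. Ccnd1 (cyclin D1) was at 45.4, 56.8, 218 and 53.7 CPM against 698 to 844 CPM, and Hbegf, an EGF receptor ligand, at 5.68, 0, 16.1 and 14.6 CPM against 98.1 to 154 CPM. The other genes of the 15 lowest (Klra4, Eno3, 2200002D01Rik, Cks2, Prkg2 and Fdps) had log2 ratios of -3.66 to -2.76. Ankrd1, a mechanically induced nuclear protein, was at 17.0, 0, 56.4 and 7.32 CPM against 181 to 257 CPM. Cdkn2b, a neighbour of the rule gene Cdkn2a, was at 11.4, 0, 8.06 and 21.96 CPM against 118 to 148 CPM.

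Of the MHC class I list, 1 of 10 genes was at least 4-fold higher, H2-Q7, whose reads may be shared with other H2-Q genes, at 85.1, 56.8, 249.9 and 166 CPM against 6.64 to 11.7 CPM. B2m was at 1930.1, 2309, 2483 and 2516 CPM against 2056 to 2727 CPM in tumour cells, and H2-K1 at 1328, 1306, 1926 and 1694 CPM against 1344 to 1538 CPM. Ly6a, a stem and interferon-inducible surface antigen, was the 1 of 14 genes of the interferon list that was at least 4-fold higher, at 1771, 2252, 2716 and 1928 CPM against 54.4 to 117 CPM. Class II genes stayed low. H2-Ab1 was at 119, 189, 137 and 87.9 CPM, while myeloid cells had 4645 to 5866 CPM and T cells 73.4 to 116 CPM. Of the endoplasmic reticulum chaperones, Calr was at 471, 984, 758 and 647 CPM against 271 to 285 CPM and Hspa5 at 511, 662, 580.3 and 522 CPM against 355 to 418 CPM. Xbp1, the transcription factor of secretory cells, was at 131, 114, 169 and 181 CPM against 41.7 to 46.1 CPM.

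The fibroblasts varied among themselves. A Pi16 UMI was present in 131 of the 173 cells, 28, 9, 24 and 70 by library, and the cells with and without one had nearly the same median depth, 3251 and 3258.5 UMIs. Over the pooled UMIs of each set, with no test because cells are not replicates, other genes of the Pi16 type were higher in the cells with a Pi16 UMI. Sema3c was at 277 against 56.0 CPM (with against without), Cd55 at 286 against 72.8 CPM and Dpp4 at 97.5 against 28.0 CPM. Ly6c1, whose reads may be shared with Ly6c2, was at 1333 against 493 CPM. Complement C3 moved the same way, at 3628 against 1474 CPM, as did Cxcl12, at 780.3 against 314 CPM. Genes of the Col15a1 type went both ways. Lower in the cells with a Pi16 UMI were Col15a1 at 113 against 213 CPM, Penk at 75.3 against 191 CPM and Col4a1 at 390.2 against 728 CPM. Sparcl1 was lower too, at 17.1 against 44.8 CPM. Higher were Cxcl12, which is of that type, Apod at 566 against 319 CPM and Hspg2 at 269 against 196 CPM. Further genes were lower in the cells with a Pi16 UMI. Igf1 was at 113 against 538 CPM, Eln at 450.0 against 1973 CPM and Tagln at 18.8 against 84.1 CPM. For Igf1 and Eln single cells hold a large part of the UMIs, as given above. Collagens were high in both sets, with Col1a1 at 9944 against 7705 CPM and Col3a1 at 10219 against 6455 CPM.

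**Figure D3:**
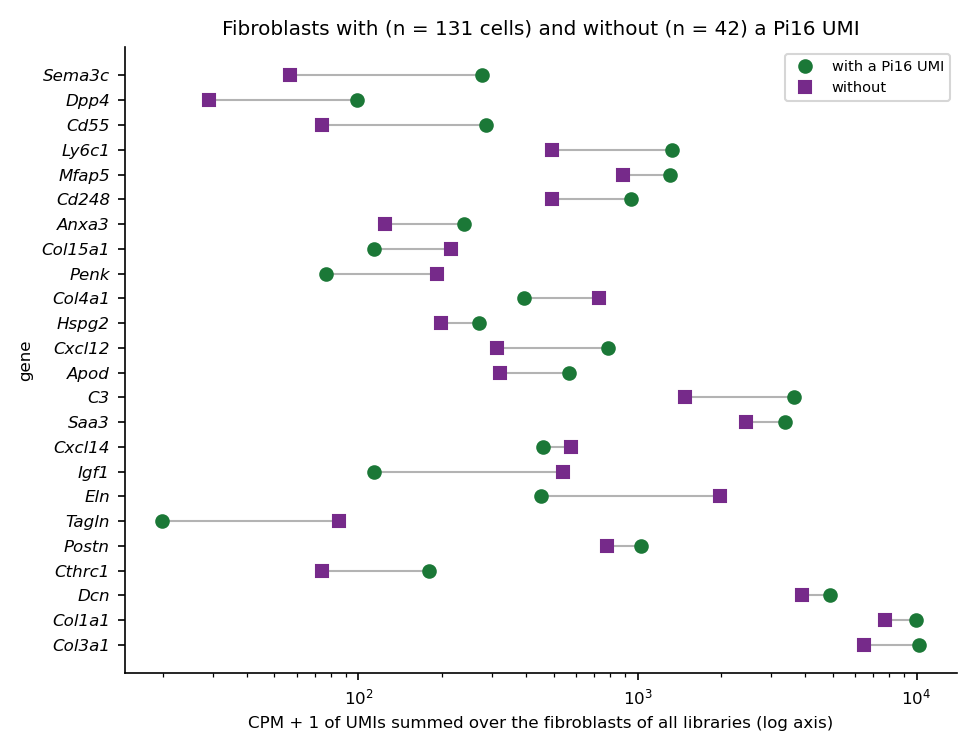
CPM + 1 on a log axis over the UMIs of all fibroblasts with a Pi16 UMI (131 cells, circles) and without one (42 cells, squares). Sema3c, Dpp4 and Cd55 lie to the right in cells with Pi16, and Igf1, Eln and Tagln lie to the right in cells without it.

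A Col15a1 UMI was present in 49 cells, whose median depth of 4783 UMIs was above the 2575.5 of the other 124, so the sets differ in depth. Pi16 was at 914 against 1645 CPM in the cells with against those without it, and Penk at 166 against 64.6 CPM. Other genes of the Pi16 type went both ways. Dpp4 was at 38.8 against 106 CPM and Sema3c at 169 against 259 CPM, while Mfap5 was at 1588 against 988 CPM and Ly6c1 at 1207 against 1095 CPM. Cells with a Saa3 UMI numbered 70 and had a median of 3697 UMIs against 2912 in the other 103. C3 was at 4002 against 2385 CPM in them, Cxcl12 at 984 against 408 CPM and Cxcl14 at 729 against 280.0 CPM. Postn was lower in them, at 677 against 1219 CPM, and Eln was at 152 against 1356 CPM. H19, an imprinted RNA, was at 1266, 0, 32.2 and 97.6 CPM, and 1 cell of control 1 held 97.8% of that library's UMIs of it.

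The share of fibroblasts among all cells of a library was 0.386%, 0.113%, 0.284% and 0.676% (exact Clopper-Pearson 95% intervals 0.279 to 0.522, 0.0585 to 0.198, 0.191 to 0.405 and 0.543 to 0.831%, which cover counting error only). The highest share was in shRNA 2 and the lowest in control 2, and shRNA 1 lay between the controls. The mean was 0.250% ± 0.193 (SD, n = 2) in the controls and 0.480% ± 0.277 (SD, n = 2) in the shRNA libraries, and the groups overlapped (exact two-sided permutation test, p = 0.667, where 2 against 2 libraries cannot go below 0.333). Among cells not called tumour cells, the share was 0.923% and 0.239% in the controls and 0.907% and 2.07% in the shRNA libraries (exact permutation p = 0.667). With these settings the groups overlapped by both totals. For the share of host cells they did not overlap with a marker minimum of 5 UMIs, with a myeloid limit of 1 per 10000, or with host cells taken as those under 3 tumour gene UMIs per 10000, where the difference was 0.821, 0.789 and 1.14 percentage points (exact permutation p = 0.333 each, the smallest possible). The myeloid limit took the marker-positive cells left after the tumour limit from 103 to 42 and from 63 to 12 in the controls, and from 41 to 30 and from 113 to 91 in the shRNA libraries, and with a limit of 20 in place of 5 per 10000 the fibroblasts numbered 52, 14, 32 and 93.

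**Figure D4:**
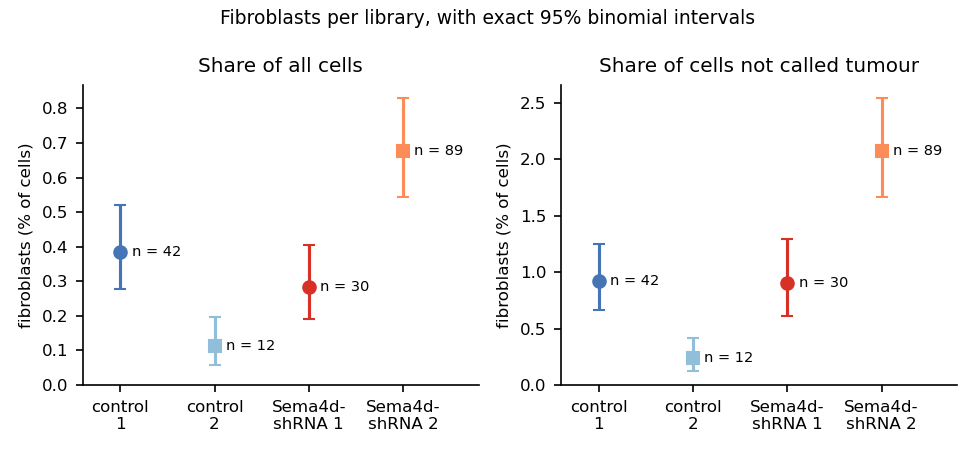
Fibroblasts as a percent of all cells (left) and of cells not called tumour cells (right) in each of the 4 libraries, with exact 95% binomial intervals and the number of fibroblasts. The shRNA libraries sit at 0.284% and 0.676% of all cells and the controls at 0.386% and 0.113%, so the groups overlap.

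The fibroblasts of shRNA tumours were then compared with those of control tumours over the library sums, a contrast the rule did not use. Of 1882 genes tested with edgeR, 0 were higher (0%) and 1 was lower (0.0531%) at an adjusted p below 0.05. At an unadjusted p below 0.05 there were 88 genes, and DESeq2 called 0 higher and 2 lower genes with adjustment. In 378 genes (20.1%) both shRNA libraries lay above both controls while in 269 (14.3%) both lay below, and of all these mt-Cytb alone passed. The median log2 difference over all tested genes was 0.01. The counts rest on single libraries: 7 higher and 10 lower genes passed without control 1, 1 and 20 without control 2, 3 and 11 without shRNA 1, and 5 and 1 without shRNA 2.

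The gene that passed was mt-Cytb, the mitochondrially encoded cytochrome b. It was at 1152 and 1173 CPM in the control and 234 and 237 CPM in the shRNA libraries (tumour cells 636, 717, 267 and 348 CPM). The controls were nearly equal, the shRNA libraries were nearly equal, and the level fell by 2.33 on the log2 scale (SE 0.35, edgeR adjusted p = 0.0145). The other mitochondrially encoded genes lay the same way without passing. mt-Atp6 was at 3321, 2801, 887 and 708 CPM (log2 difference -1.99, SE 0.37, edgeR adjusted p = 0.0671), and mt-Nd5 and mt-Nd4 had edgeR adjusted p = 0.0859 each. Of the 10 mitochondrial genes tested, 10 lay below each control in each shRNA library, against 14.3% of all tested genes, and their median log2 difference was -1.67. The difference was seen in other cells too. The median mitochondrial share of UMIs per cell was 1.25%, 1.01%, 0.209% and 0.273% in fibroblasts, 0.752%, 0.675%, 0.250% and 0.336% in tumour cells, 1.40%, 1.27%, 0.405% and 0.510% in myeloid cells and 1.24%, 1.00%, 0.177% and 0.322% in T cells. The fall in mt-Cytb was not shown to differ from that in tumour cells, with a difference of effects of -0.97 (SE 0.52, edgeR adjusted p = 1.00). What part the mitochondrial share of the whole library has in this result was not tested. Without shRNA 1 the edgeR adjusted p was 0.167 and without shRNA 2 it was 0.0898.

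Genes with the smallest p among those higher in shRNA fibroblasts did not pass. Cxcl12 was at 369 and 265 CPM in the control and 903 and 783 CPM in the shRNA libraries, with both shRNA libraries above both controls (log2 difference 1.31, SE 0.37, edgeR adjusted p = 0.330), while tumour cells had 70.3, 75.8, 70.6 and 72.4 CPM. Saa3, at the levels given above, was higher in each shRNA library than in each control (log2 difference 2.11, SE 0.57, edgeR adjusted p = 0.332), with 1.49, 2.57, 8.88 and 2.36 CPM in tumour cells. The Saa3 difference was 3.21 without control 1 (edgeR adjusted p = 1.89e-06), 1.59 without control 2 (0.764), 1.24 without shRNA 1 (0.9998) and 2.69 without shRNA 2 (0.00979). Maf, a leucine zipper transcription factor, was at 39.7, 56.8, 129 and 207 CPM (log2 difference 1.90, SE 0.52, edgeR adjusted p = 0.309). Stmn1, a tubulin-binding protein of dividing cells, was at 17.0, 0, 96.7 and 95.2 CPM (log2 difference 2.75, SE 0.76, edgeR adjusted p = 0.327). Pde10a, a phosphodiesterase, was at 0, 18.9, 88.7 and 83.0 CPM and rests on 46 UMIs (log2 difference 3.99, SE 1.12, edgeR adjusted p = 0.329). The Stmn1 difference was 7.25 without control 1 and 2.34 to 2.81 without each other library. That of Pde10a was 2.32 without control 1, and 7.31 without control 2, where it passed (edgeR adjusted p = 0.0279).

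**Figure D5:**
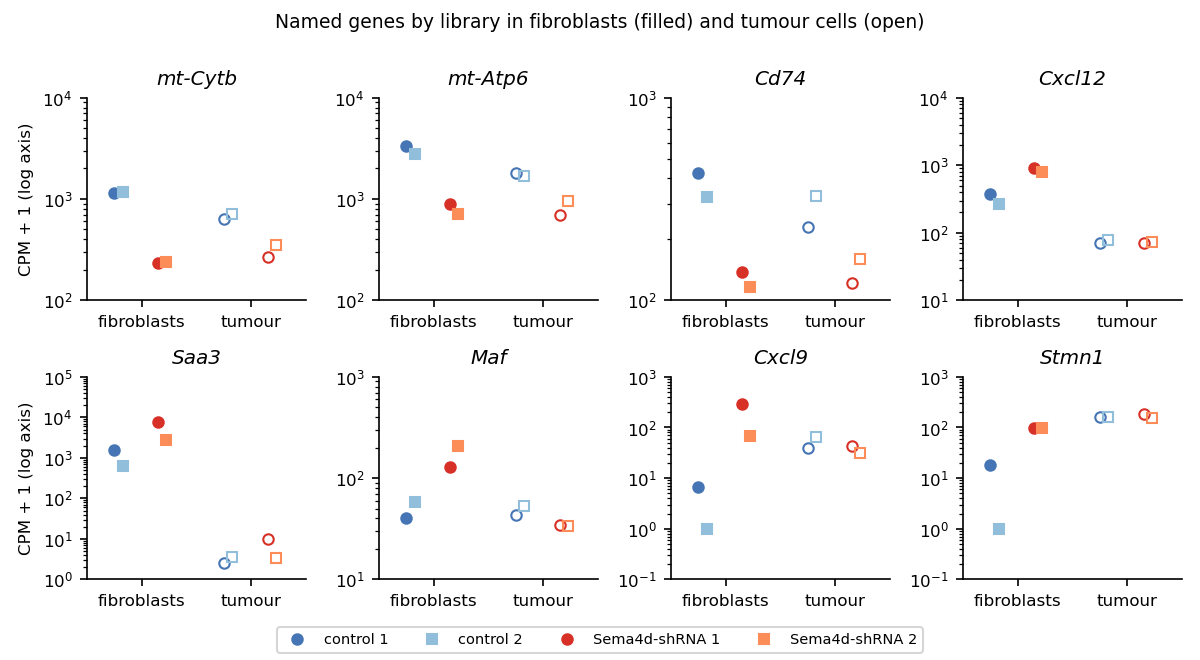
CPM + 1 on a log axis of 8 named genes by library, in fibroblasts (filled) and tumour cells (open), with controls in blue and shRNA libraries in red and orange. mt-Cytb is at 1152 and 1173 CPM in control fibroblasts and at 234 and 237 CPM in shRNA fibroblasts, and it is lower in shRNA tumour cells too.

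On the lower side, Cd74, the class II invariant chain, was at 426 and 322 CPM in the control and 137 and 115 CPM in the shRNA libraries (log2 difference -1.68, SE 0.40, edgeR adjusted p = 0.297). Myeloid cells hold far more of it, at 8603 to 10248 CPM, and the T cells had 158, 163, 102 and 138 CPM. C1qa, a myeloid gene, was at 73.8, 75.7, 56.4 and 26.8 CPM in the same fibroblast sums, and the myeloid share of each library was higher in the controls (2715 and 3570 cells against 1638 and 2108). The Cd74 difference moved with the myeloid limit, to -1.97 (edgeR adjusted p = 0.00241) with a limit of 1 per 10000 and to -0.77 (edgeR adjusted p = 0.982) with a limit of 20, and it passed in 5 of 16 alternatives. The part of myeloid RNA in it was not tested.

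Whole lists are described by their counts beside those of all tested genes, where 50.5% lay above 0. In 20.1% of all tested genes both shRNA libraries lay above both controls, and in 14.3% both lay below. Of MHC class I genes, 10 of the 11 tested had a log2 difference above 0, with a median of 0.42, and in 6 both shRNA libraries lay above both controls, among them H2-D1 at 823, 681, 1249 and 1142 CPM and H2-K1 at 1328, 1306, 1926 and 1694 CPM. In this list 0 passed. Of hypoxia and glycolysis genes, 0 of the 10 tested had a log2 difference above 0, with a median of -0.37. In 3 of these genes both shRNA libraries lay below both controls. Eno1 (enolase 1) was at 244, 284, 153 and 75.7 CPM and Aldoa (aldolase A) at 789, 757, 580.3 and 388 CPM, with both shRNA libraries below both controls, and neither passed. Of immediate early and heat shock genes, 3 of the 14 tested had a log2 difference above 0, with a median of -0.32. Junb was at 375, 303, 137 and 127 CPM (log2 difference -1.45, SE 0.39, edgeR adjusted p = 0.309). Of matrix genes, the fibrillar collagens had 5 of 6 above 0 with a median of 0.23, and the elastic fibre genes 7 of 18 with a median of -0.09. For Col1a1 (log2 difference 0.24, SE 0.41, edgeR adjusted p = 0.975) and C3 (log2 difference 0.27, SE 0.35, edgeR adjusted p = 0.975) no difference was detectable at this depth. Of complement genes, 7 of the 8 tested had a log2 difference above 0, with a median of 0.14. Of the Pi16 type, 2 of the 13 tested had a log2 difference above 0, with a median of -0.23, and Dpp4 was at 119, 114, 40.3 and 73.2 CPM (log2 difference -0.96, SE 0.47, edgeR adjusted p = 0.975). Sema3c, at the steady level given above, had a log2 difference of -0.10 (SE 0.38).

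Whether the shRNA effect differed between fibroblasts and tumour cells was tested as an interaction over 8 sums. Of 13810 genes, 1 was higher in fibroblasts relative to tumour cells (0.00724%) and 2 were lower (0.0145%) at an edgeR adjusted p below 0.05, with 314 at an unadjusted p below 0.05. When the test was limited to the 1882 genes that pass the filter on the fibroblast sums alone, a choice made after the data had been seen, 0 were higher and 0 lower. Leaving out control 1 gave 5 higher and 1 lower gene, control 2 gave 3 and 9, shRNA 1 gave 0 and 2, and shRNA 2 gave 2 and 1.

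The gene that was higher was Cxcl9, an interferon-gamma-induced chemokine (chr5:92321347-92328079). It was at 5.68 and 0 CPM in the control and 290.2 and 65.9 CPM in the shRNA libraries in fibroblasts, that is 1 and 0 UMIs against 36 and 27, and at 37.6, 63.0, 41.5 and 30.6 CPM in tumour cells. The fibroblast UMIs of the shRNA libraries came from 10 of 30 and 11 of 89 cells. The fitted difference of effects was 5.44 (SE 0.99, edgeR adjusted p = 0.000253) on the log2 scale. With 1 and 0 UMIs in the controls this value depends on the prior count of the fit and is no estimate or bound of a fold, and Cxcl9 did not pass the filter on the fibroblast sums alone. Myeloid cells had the highest Cxcl9 level of the classes, at 1263, 1538, 1503 and 1019 CPM and T cells 18.8, 23.2, 12.5 and 5.01 CPM. The fitted value was 4.60 to 16.34 when 1 library was left out, and without shRNA 1, where it was 4.60, the edgeR adjusted p was 0.454. With 5 marker UMIs per 10000 as the rule it was 2.13 (edgeR adjusted p = 0.366), and DESeq2 did not call it. The 2 lower genes rest on single cells of control 1. All 23 UMIs of Gm43291, a predicted gene, in that library came from 1 cell, as did all 14 UMIs of Sprr1a, an epithelial envelope protein gene that was at 0 in the fibroblasts of the other 3 libraries. Neither passed the filter on the fibroblast sums alone. Among genes that did not pass, Cxcl14 had a difference of effects of 2.03 (SE 0.51, edgeR adjusted p = 0.128) and Maf one of 2.55 (SE 0.62, edgeR adjusted p = 0.106). Pde10a had one of 4.63 (SE 1.29, edgeR adjusted p = 0.449) and Stmn1 one of 2.99 (SE 0.85, edgeR adjusted p = 0.532). When 1 library was left out these fitted values ran from 2.85 to 15.22 for Pde10a and from 2.41 to 14.96 for Stmn1. On the lower side Rsad2, an antiviral interferon gene, was at 114, 18.9, 0 and 7.32 CPM in fibroblasts, and its fitted value of -3.78 (SE 0.96, edgeR adjusted p = 0.143) ran from -14.21 to -1.83 when 1 library was left out and passed without control 2 (edgeR adjusted p = 0.0144). Rrad was at 0, 246, 0 and 0 CPM in fibroblasts, so that its UMIs are all in control 2, and without that library its fitted value went from -14.44 to -0.26, while without control 1 it was -16.02 and passed (edgeR adjusted p = 0.000918). Fitted values of genes at 0 in whole groups depend on the prior count. Cxcl10, with a difference of -2.51 (SE 0.63, edgeR adjusted p = 0.128), had 96.3% of its control 1 UMIs in 1 cell.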

How the data were processed

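Dissociated tumour cells were encapsulated in droplets and sequenced, per the labels' protocols. The deposited files hold raw UMI counts per gene and cell, written by PISA 1.0 per the file headers. STAR 2.5.1b and the builds GRCh38 and mm10 are named, without a role, in the submitters' processing notes. The sources used here do not give the annotation, cell calling or strand. Every deposited cell had at least 1000 UMIs.

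Counts of the chosen cells were summed per library. Levels are CPM of these sums. For levels in fibroblasts against tumour cells, genes needed a mean of 100 CPM in either class, with 5 CPM added before logs. Group differences used the robust quasi-likelihood test of edgeR 4.0.16 with filterByExpr, TMM and Benjamini-Hochberg adjustment at 0.05 (limma 3.58.1, R 4.3.3), checked on simulated data, and with DESeq2 1.42.0 as an alternative. The interaction had library as a block. Shares were tested with exact permutation (scipy 1.17.1). Myeloid cells were cells with at least 20 UMIs of Tyrobp and Fcer1g per 10000, and T cells were cells with Cd3e. Both classes needed at least 300 genes and fewer than 3 UMIs of the 4 tumour genes of the rule per 10000. T cells also had to stay below 5 UMIs of Tyrobp and Fcer1g per 10000. Genes named are the marker genes, the 30 highest and 15 lowest against tumour cells, those that passed a test or had the 5 smallest p in each direction, and the members of each list with the highest level. The 30 and the 15 were taken among genes outside the rule with the same direction in all 4 libraries. Names that fall outside this rule, such as Eno1, Dpp4, Tagln and the genes of the Pi16 comparison, were chosen after their values were seen. The members, the rule and the 43 gene lists were chosen with earlier results of these data known. Gene positions are from GENCODE M21 (GRCm38), where 22601 of 23635 symbols matched. Figures were drawn with matplotlib 3.10.9.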

Additional observations from a re-analysis of the deposited data

Results flagged for a closer look

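In 3 genes the edgeR interaction test of the shRNA effect in fibroblasts against that in tumour cells passed. All 3 were too low for the filter on the fibroblast sums alone, under which 0 genes passed in either direction, and their fitted values depend on the prior count and bound no fold. Cxcl9 had a log2 difference of effects of 5.44 (edgeR adjusted p = 0.000253), with 5.68, 0, 290.2 and 65.9 CPM in the fibroblasts of the 4 libraries. Gm43291 had one of -6.92 (edgeR adjusted p = 2.85e-08), from 131, 0, 24.2 and 14.6 CPM in fibroblasts and 0.310, 0.288, 4.17 and 10.6 CPM in tumour cells. All its UMIs in control 1 were in 1 cell. Sprr1a had one of -14.55 (edgeR adjusted p = 0.0244), with 79.5, 0, 0 and 0 CPM in fibroblasts. All its UMIs were in 1 cell of control 1, and the call was lost in 8 of 16 alternatives and reversed in 1.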

How the results depend on the processing

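Shares of fibroblasts kept their direction under all 12 alternatives for all cells and all 13 for host cells. Among the alternatives that kept every library, the host cell shares did not overlap between groups in 3. By both totals the groups also did not overlap without control 1 and without shRNA 1. Leaving out 1 library moved the difference between 0.0340 and 0.426 percentage points of all cells and between 0.326 and 1.49 of host cells. The count of genes at least 4-fold higher than in tumour cells was 206 to 240 under all 14 alternatives. The lower count was 120 with a tumour gene limit of 1 per 10000 and otherwise 49 to 83.

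Counts between groups in fibroblasts depended on the settings. Lower genes numbered 26 with 5 marker UMIs per 10000, 7 with a marker minimum of 5 UMIs, 2 with at least 500 genes, 15 and 9 with a myeloid or tumour gene limit of 1 per 10000, 2 with DESeq2-type size factors, 12 without a filter on low counts, 2 with DESeq2, and 1 to 20 when 1 library was left out. Higher genes numbered 2 with 5 marker UMIs per 10000, 2 with the myeloid limit of 1, 4 without the filter and 1 to 7 without 1 library. With the replicate block 6 were higher and 17 lower. Nothing says that the replicate numbers mark animals or batches, so they were not treated as pairs. The correlation of deviations from the group mean was 0.158 for control 1 and shRNA 1. With 2 libraries per group the other pair must give the same value, so it cannot decide whether libraries are paired. mt-Cytb kept its direction in all 16 alternatives. Its adjusted p missed 0.05 without shRNA 1 (0.167) and without shRNA 2 (0.0898). mt-Atp6 passed in 11 of 16 and Saa3 in 5 of 16.

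For the difference of effects, higher genes numbered 4 with 5 marker UMIs per 10000, 0 with DESeq2, 2 with the replicate block by class, 0 with the filter on the fibroblast sums alone and 0 to 5 without 1 library. Lower genes numbered 1 with 5 marker UMIs per 10000, 1 with at most 10000 UMIs, 1 with either gene limit of 1, 4 with DESeq2-type size factors, 1 with DESeq2, 0 with the replicate block by class, 0 with the filter on the fibroblast sums alone and 1 to 9 without 1 library. Cxcl9 lost its call in 3 of 16 alternatives, Gm43291 in 2 and Sprr1a in 8. Sprr1a was -0.46 with at most 10000 UMIs and -15.31 to -0.52 when 1 library was left out, and turned to 8.83 with 5 marker UMIs per 10000. Gm43291 ran from -7.73 to 7.67 and Cxcl10 from -3.41 to 0.95 when 1 library was left out, both above 0 without control 1 alone. Cxcl10 turned to 0.97 with 5 marker UMIs per 10000, 1.17 with the marker minimum of 5, and 1.08 and 1.00 with the myeloid and tumour limits of 1. The causes were not tested. Cxcl9, Gm43291, Sprr1a, Cxcl10, Rrad and Rsad2 were too low to be tested with the filter on the fibroblast sums alone, and Pde10a and Stmn1 were filtered out in 3 alternatives of the comparison within fibroblasts. The myeloid limit of 20 and that filter were chosen after seeing the data. Where a group keeps 1 library, that library is assumed to vary like the other group. Control 2, with 12 cells and 52838 UMIs, limits what can be detected.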
